A study of Mus musculus with 6 samples.

Results

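The genes described here were the tumour suppressor gene *Trp53*, 8 genes that its product p53 switches on (*Cdkn1a*, *Mdm2*, *Ccng1*, *Phlda3*, *Bax*, *Bbc3*, *Trp53inp1* and *Zmat3*) and *Cdkn2a*, the locus most often used to mark senescent cells. They were taken by gene symbol from a table of read counts, and all 10 were among its 37384 symbols. Adipocytes had been isolated from inguinal subcutaneous white adipose tissue (scWAT) of male mice at postnatal day 7 and sequenced in 6 libraries. In 3 libraries the mice carried floxed alleles of *Lats1* and *Lats2* with no Cre (*Lats1* f/f *Lats2* f/f, called L1L2-FF), and in the other 3 their littermates carried the same floxed alleles together with *Adipoq* Cre (L1L2-AKO). Each library came from a pool of 4 mice, so the spread between libraries was that between pools. The *Adipoq* promoter drives Cre in adipocytes, and the alleles stay intact only in cells in which, and in whose forerunners, it was never active. Whether they were intact in the other cells of these libraries was not tested. The cells were collected by floating after collagenase digestion, which does not sort them by type.

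p53 is a transcription factor that is kept scarce by the ubiquitin ligase MDM2 and accumulates after DNA damage and other stress. It then switches on genes that arrest the cell cycle, repair DNA or start apoptosis, as well as *Mdm2* itself, which closes a negative loop. Much of this control acts on the p53 protein, so that target transcripts are commonly read as the sign of its activity. Senescence is a lasting arrest held by 2 CDK inhibitor routes, p21 (*Cdkn1a*) downstream of p53 and p16Ink4a (*Cdkn2a*) upstream of RB, and senescent cells secrete cytokines, chemokines and proteases. In adipose tissue both routes have been linked to obesity and ageing. LATS1 and LATS2 are the kinases of the Hippo pathway that phosphorylate YAP and TAZ, and LATS2 is also known to bind MDM2 and sustain p53.

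Upstream sequences are shown for 3 targets that differ in the results below, *Cdkn1a*, *Phlda3* and *Bax*, because a p53 response element near the start is the usual mark of a direct target. RefSeq starts on GRCm38.p6 gave 12 windows for 8 of the 10 genes, with no entry for *Trp53inp1* and *Zmat3*. Each window was the 250 bases before the start, read 5′ to 3′ on the strand of the gene, and was searched for the p53 response element, which is a pair of 10-base units each with a core of CNNG in which N is A or T. The pair had to be adjacent with intact cores, and up to 2 mismatches in the 20 bases were allowed. The element reads alike on both strands, so 1 pass covered both. Capitals mark the full site in *Cdkn1a* and a perfect single unit in *Bax*, and the *Phlda3* window held neither.
Cdkn1a, chr17:29090729-29090978, plus strand: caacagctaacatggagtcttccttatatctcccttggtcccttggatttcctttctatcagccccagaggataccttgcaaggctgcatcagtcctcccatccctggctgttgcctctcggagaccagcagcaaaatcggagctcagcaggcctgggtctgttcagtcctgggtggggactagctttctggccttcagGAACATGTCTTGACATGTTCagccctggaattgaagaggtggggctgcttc
Phlda3, chr1:135765835-135766084, plus strand: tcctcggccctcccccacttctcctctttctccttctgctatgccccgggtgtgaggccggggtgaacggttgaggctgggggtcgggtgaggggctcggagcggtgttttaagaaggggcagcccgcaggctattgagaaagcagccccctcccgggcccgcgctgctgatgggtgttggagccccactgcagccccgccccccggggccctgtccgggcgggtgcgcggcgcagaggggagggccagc
Bax, chr7:45466899-45467148, minus strand: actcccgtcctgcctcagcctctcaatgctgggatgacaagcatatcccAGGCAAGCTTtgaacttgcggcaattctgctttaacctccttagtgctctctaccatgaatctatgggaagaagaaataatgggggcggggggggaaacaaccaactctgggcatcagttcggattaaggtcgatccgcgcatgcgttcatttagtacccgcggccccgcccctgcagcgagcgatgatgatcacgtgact
The site upstream of *Cdkn1a* lay at chr17:29090928-29090947 with 1 mismatch, and its first base was 51 bases before that start and 2841 bases before the gene's other RefSeq start. A full site with at most 2 mismatches was found in 0.134% of all 32851 windows of the same length, and in 1 of the 12 windows here. A perfect single unit was found in 7.13% of all windows and in 5 of the 12 here, those of *Bax*, *Ccng1*, *Mdm2*, *Trp53* and *Cdkn1a*. These matches describe letters only, and elements further away, such as those within the first introns of *Mdm2* and other targets, lie outside the windows.

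Total counts per library ranged from 30548473 to 32107917, and the genotypes separated on the first principal component (61.8% of the variance). *Lats1* was lower in the libraries labelled L1L2-AKO, at 38.9 to 41.2 CPM (counts per 1000000 counts of the library, scaled by TMM factors) against 76.1 to 94.3 in L1L2-FF. *Lats2* went against the label, at 96.2, 126 and 135 CPM in the libraries labelled L1L2-AKO against 74.9, 85.7 and 68.5 CPM in L1L2-FF, and 41.2% of the 50-base stretches of its transcripts also occur in those of *Gm49361*. Directions below are therefore those between the labels. The second component (17.2%) set L1L2-FF replicate 2 furthest from the other libraries, so values without it are given where they change a call. The floated fraction also held transcripts that mark other cells. All 10 adipocyte markers were counted, with *Adipoq* at 1720 to 2396 CPM in L1L2-FF. No marker of the other 9 cell type lists was at or under 3 counts in all 6 libraries, which does not establish that each of these cell types was present. The summed level over the 6 libraries was only 7.25 to 25.5 CPM for lymphocyte markers and 2.28 to 16.4 CPM for muscle markers. In such bulk RNA, fewer cells of a type and less RNA per cell cannot be told apart.

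Across the 10 genes, *Phlda3* and *Trp53inp1* were lower and *Bax* was higher under the label L1L2-AKO, while 6 genes, *Trp53* and *Cdkn1a* among them, did not pass the threshold and *Cdkn2a* was too scarce to test. Levels were compared by the quasi-likelihood test of edgeR at a threshold of 0.05 on p-values adjusted after Benjamini and Hochberg across the 15674 tested genes, which called 16.5% of all tested genes, 9.28% higher and 7.18% lower. Against this background, 3 of the 9 tested genes (33.3%) passed, and their median log2 fold change was -0.09 beside -0.02 for all tested genes. The libraries of the genotypes did not overlap for 4 of the 9 genes, *Mdm2* and *Bax* upward and *Phlda3* and *Trp53inp1* downward, beside 36.4% of all tested genes (18.0% upward and 18.4% downward). Without L1L2-FF replicate 2, or without any other library except L1L2-FF replicate 3, *Phlda3* alone passed, and without L1L2-FF replicate 3 all 3 genes did. The 8 target genes, all switched on by p53, thus had differences in both directions, 1 higher and 2 lower, with a median of -0.17.

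**Figure D1:**
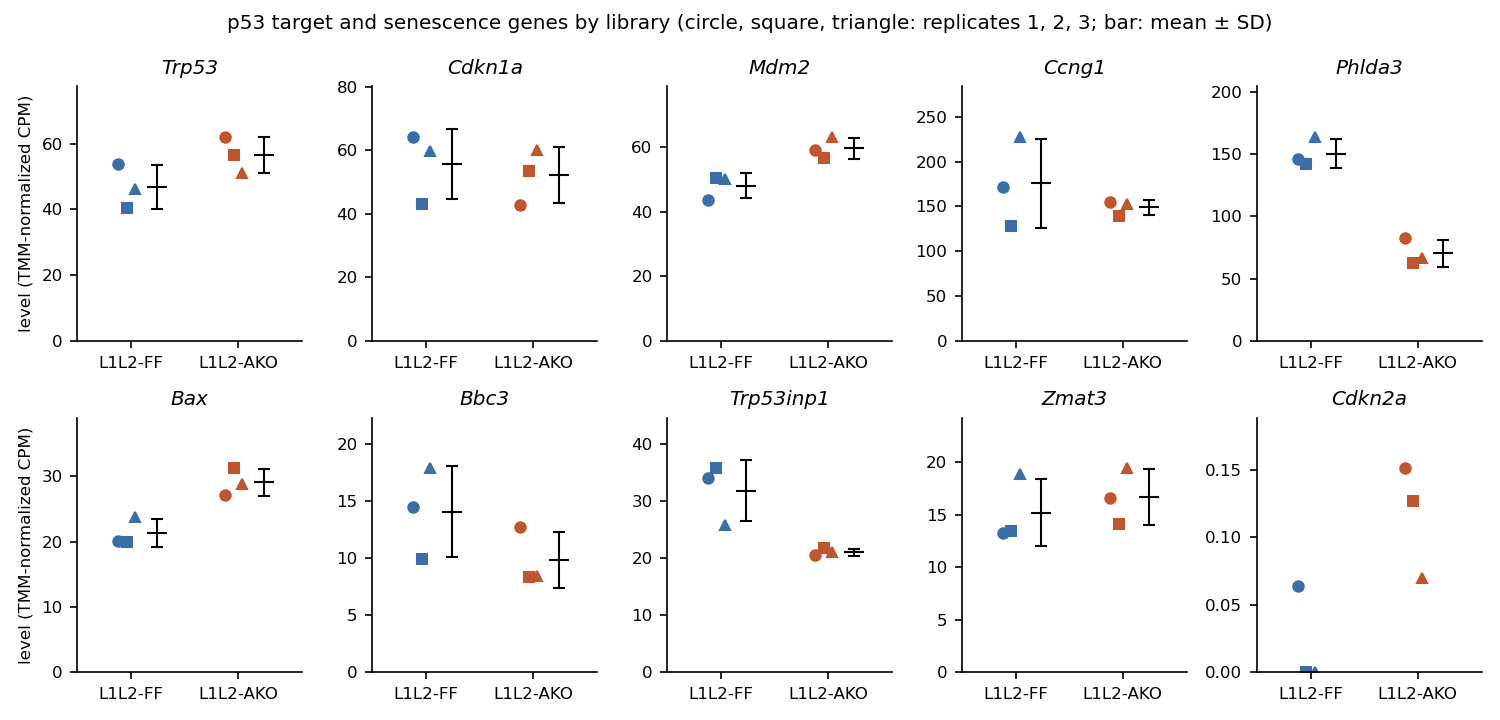
Level of each of the 10 genes in TMM-normalized CPM (vertical axes, each from 0) by genotype as labelled (horizontal axes), with circles, squares and triangles for replicates 1, 2 and 3 and a bar for the mean ± SD, left out for *Cdkn2a*, which had 0 to 5 counts per library. *Phlda3* (62.2 to 82.5 against 142 to 164 CPM) and *Trp53inp1* lay lower and *Bax* and *Mdm2* higher with no overlap, and the other tested genes overlapped.

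*Trp53* (chr11:69580359-69591873, plus strand) encodes p53 itself. It was counted at 53.7, 40.6 and 46.2 CPM in the 3 L1L2-FF libraries and at 62.1, 56.6 and 51.0 CPM in the libraries labelled L1L2-AKO. The highest L1L2-FF library exceeded the lowest library of the other genotype, so the groups overlapped. The mean was 46.8 ± 6.60 (SD, n = 3) in L1L2-FF and 56.5 ± 5.52 (SD, n = 3) for libraries labelled L1L2-AKO, a log2 fold change of 0.27 (SE 0.137, 95% interval -0.04 to 0.59) that did not pass (adjusted p = 0.225, edgeR). An increase of up to 0.59 on the log2 scale, or a small decrease, is therefore compatible with these libraries. Its processed pseudogene *Trp53-ps* shares 3.64% of the 50-base stretches of *Trp53* and had 0 counts in every library.

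*Mdm2* and *Ccng1* act back on p53. *Mdm2* (chr10:117688875-117710758, minus strand), the ligase that degrades p53, was counted at 43.6, 50.3 and 50.1 CPM in L1L2-FF and at 59.1, 56.6 and 63.1 CPM in the libraries labelled L1L2-AKO. All 3 of the latter lay above all 3 of the former. The log2 fold change was 0.31 (SE 0.109, 95% interval 0.06 to 0.56), with an unadjusted p of 0.0212 and an adjusted p of 0.0920 by edgeR, so it did not pass the threshold across all genes, and it did not pass in any of the 15 alternative settings. *Ccng1* (chr11:40748552-40755311, minus strand), which encodes cyclin G1, a regulatory partner of the phosphatase PP2A in the control of MDM2, was counted at 172, 129 and 228 CPM in L1L2-FF and at 155, 140 and 152 CPM in the libraries labelled L1L2-AKO. The L1L2-FF libraries spread on both sides of the others, and the log2 fold change of -0.24 (SE 0.197, 95% interval -0.69 to 0.21) did not pass (adjusted p = 0.467, edgeR).

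The arrest genes gave no difference that passed. *Cdkn1a* (chr17:29090976-29100727, plus strand) encodes p21, the CDK inhibitor through which p53 arrests the cycle. Its libraries stood at 64.2, 43.0 and 59.8 CPM in L1L2-FF and at 42.8, 53.6 and 60.2 CPM in the libraries labelled L1L2-AKO. The ranges of the genotypes nearly coincided. The mean was 55.7 ± 11.1 (SD, n = 3) against 52.2 ± 8.76 (SD, n = 3), a log2 fold change of -0.09 (SE 0.183, adjusted p = 0.783, edgeR). Its 95% interval of -0.52 to 0.33 on the log2 scale allows folds from 0.699 to 1.26, and the sign turned without L1L2-FF replicate 1 (0.014) or without the library labelled L1L2-AKO replicate 1 (0.031). A transcript of the other strand, *AC167363.2*, overlaps exons of *Cdkn1a* and has no row of its own in the count table.

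*Cdkn2a* (chr4:89274471-89294653, minus strand) encodes p16Ink4a and, from another first exon, p19Arf, which inhibits MDM2, and 1 count per gene does not separate them. It had counts of 2, 0 and 0 in the L1L2-FF libraries and of 5, 4 and 2 in the libraries labelled L1L2-AKO. A count of 3, the limit that a count of 0 allows, corresponds to 0.0934 to 0.0982 CPM per library before scaling by TMM factors. Only 2 of the 6 libraries lay above 3 counts, the filter on low counts left the gene out, and no fold is given. In a fit without that filter its unadjusted p was 0.122 and its adjusted p was 0.607 (edgeR), and DESeq2 gave no adjusted p. Counts of 0 to 5 per library thus leave a difference in *Cdkn2a* undecided.

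Of the death genes, *Bax* was higher. *Bax* (chr7:45461697-45466898, minus strand) encodes the pore-forming protein that opens the outer mitochondrial membrane in apoptosis. It was counted at 20.05, 20.01 and 23.75 CPM in L1L2-FF and at 27.2, 31.2 and 28.8 CPM in the libraries labelled L1L2-AKO. Every library of the latter lay above every L1L2-FF library. The mean was 21.3 ± 2.15 (SD, n = 3) against 29.1 ± 2.01 (SD, n = 3), which is 1.37-fold higher (log2 fold change 0.45, SE 0.124, 95% interval 0.16 to 0.74, adjusted p = 0.0440, edgeR).

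The call on *Bax* lay close to the threshold. It was lost in 9 of 15 alternative settings, with an adjusted p of 0.0634 with replicate number as a block, 0.0574 with library size alone and 0.0807 without L1L2-FF replicate 2, and it was lost in 5 of the 6 fits that left out a library (edgeR, adjusted p from 0.0319 without L1L2-FF replicate 3 to 0.169 without the library labelled L1L2-AKO replicate 2). The direction was the same in all of them. *Gm45808*, an overlapping gene of the same strand with no row of its own in the count table, shares 8.51% of the 50-base stretches of *Bax*. *Bbc3* (chr7:16308393-16318205, plus strand) encodes PUMA, a BH3-only protein upstream of BAX. Its level was 14.5, 9.93 and 17.9 CPM in L1L2-FF and 12.7, 8.37 and 8.48 CPM in the libraries labelled L1L2-AKO, which overlapped, and its log2 fold change of -0.51 (SE 0.257, 95% interval -1.11 to 0.08) did not pass (adjusted p = 0.223, edgeR).

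*Phlda3* had the largest log2 fold change of the 9 tested genes. *Phlda3* (chr1:135766119-135769136, plus strand) encodes a pleckstrin homology domain protein that p53 induces and that restrains AKT at the membrane. *Phlda3* reached 146, 142 and 164 CPM in L1L2-FF and 82.5, 62.2 and 66.4 CPM in the libraries labelled L1L2-AKO. The lowest L1L2-FF library lay far above the highest library of the other genotype. The mean fell from 150 ± 11.7 (SD, n = 3) to 70.4 ± 10.7 (SD, n = 3), which is 2.14-fold lower (log2 fold change -1.10, SE 0.139, 95% interval -1.42 to -0.78, adjusted p = 0.00206, edgeR). It passed in all 15 alternative settings, and without any one library the adjusted p stayed between 0.00165 and 0.0139 (edgeR).

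*Trp53inp1* and *Zmat3* are the remaining targets. *Trp53inp1* (chr4:11156431-11174379, plus strand) encodes a stress protein that binds p53-modifying kinases and takes part in autophagy. It was counted at 34.0, 35.7 and 25.8 CPM in L1L2-FF and at 20.48, 21.73 and 21.02 CPM in the libraries labelled L1L2-AKO. The groups did not overlap, and the libraries labelled L1L2-AKO lay much closer together (SD 0.625) than those of L1L2-FF (SD 5.28). The mean fell from 31.8 to 21.1 CPM (n = 3 each, log2 fold change -0.59, SE 0.144, 95% interval -0.93 to -0.26, adjusted p = 0.0277, edgeR). Of the 6 fits that left out a library, 5 lost the call, 1 of them at an adjusted p of 0.0530 without L1L2-FF replicate 2, and the adjusted p ran from 0.00877 without L1L2-FF replicate 3 to 0.105 without L1L2-FF replicate 1 (edgeR). *Zmat3* (chr3:32334792-32366014, minus strand) encodes a zinc finger protein that binds RNA. It was counted at 13.3, 13.5 and 18.9 CPM in L1L2-FF and at 16.6, 14.1 and 19.4 CPM in the libraries labelled L1L2-AKO, which overlapped, with a log2 fold change of 0.14 (SE 0.191, 95% interval -0.30 to 0.58, adjusted p = 0.687, edgeR).

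**Figure D2:**
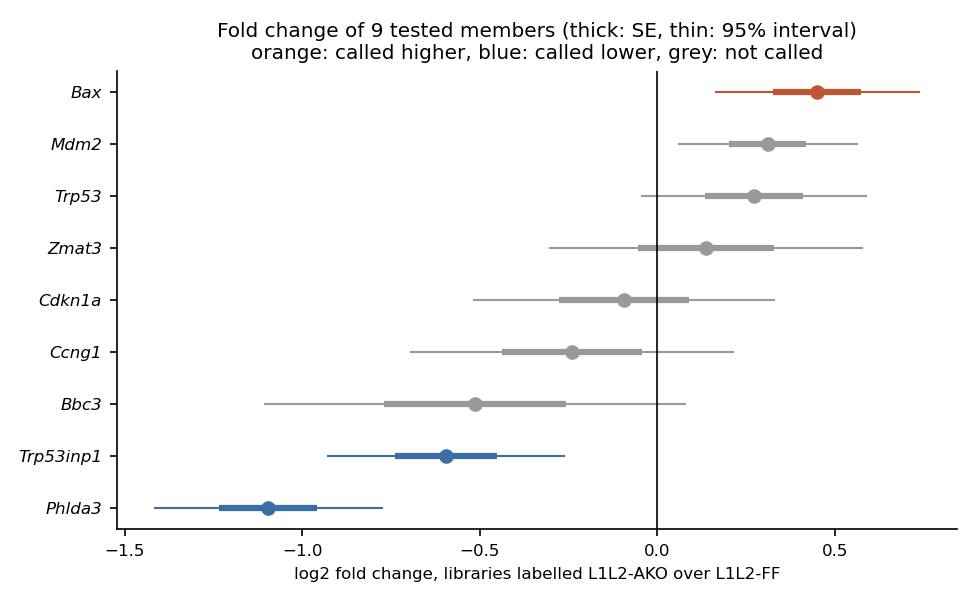
Log2 fold change of the 9 tested genes (horizontal axis, libraries labelled L1L2-AKO minus L1L2-FF) by gene (vertical axis), with thick bars for 1 SE and thin bars for the 95% interval of the edgeR fit. *Phlda3* at -1.10 lies furthest from 0, the intervals of *Trp53inp1*, *Bax* and *Mdm2* also exclude 0, and the other 5 intervals include it.

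**Figure D3:**
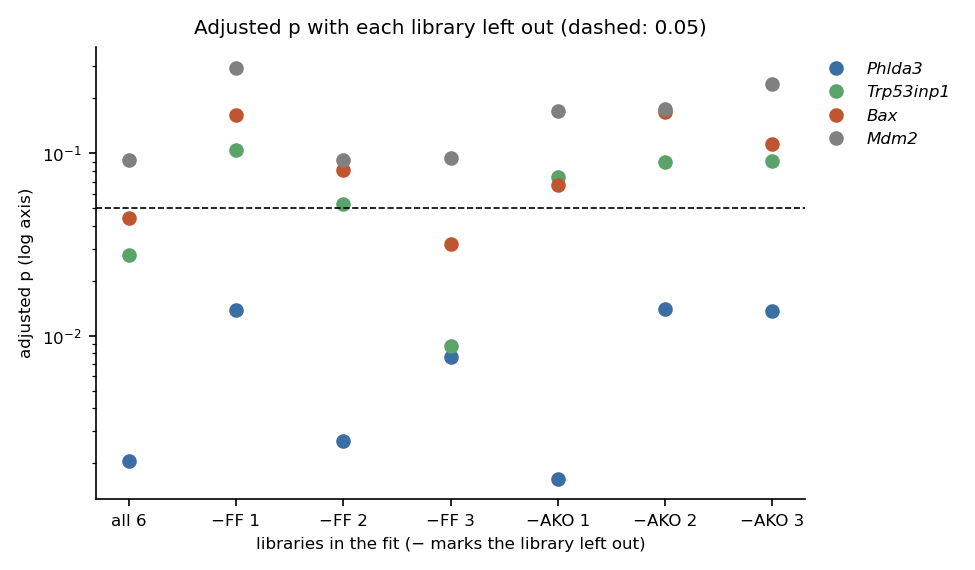
Adjusted p of edgeR's quasi-likelihood test (log axis) for *Phlda3*, *Trp53inp1*, *Bax* and *Mdm2* with all 6 libraries and without each library in turn. *Phlda3* stays between 0.00165 and 0.0139, *Trp53inp1* and *Bax* each pass 0.05 in 1 of the 6 reduced fits, and *Mdm2* in none.

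Among the L1L2-FF libraries, replicate 2 held the lowest level of 6 of the 9 tested genes (*Trp53*, *Cdkn1a*, *Ccng1*, *Bbc3*, *Phlda3* and *Bax*) and the highest of *Mdm2* and *Trp53inp1*. The same library had the lowest summed level of 20 S phase and mitosis genes, 477 CPM against 991 and 1074 CPM in the other L1L2-FF libraries and 736 to 1291 CPM in the libraries labelled L1L2-AKO. Without it the log2 fold change was 0.18 for *Trp53* (adjusted p = 0.419, edgeR), -0.25 for *Cdkn1a* (0.328), -0.42 for *Ccng1* (0.0938) and -0.71 for *Bbc3* (0.0653). None of these 4 genes passed with or without it.

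The balance between *Phlda3* and *Cdkn1a*, both p53 targets, was read within each library. The ratio of their counts was 2.27, 3.29 and 2.74 in L1L2-FF, whereas the values were 1.93, 1.16 and 1.10 for libraries labelled L1L2-AKO. Such a ratio within a library does not depend on its scaling, and the groups did not overlap. The pair was chosen after its values were seen, so these ratios are a description and no p-value is given.

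Per kilobase of exon, *Phlda3* and *Ccng1* were the most abundant of the 10 genes under both labels. In L1L2-FF the levels in CPM per kilobase ran from 96.5 for *Phlda3* through 50.1 for *Ccng1*, 15.7 for *Cdkn1a*, 13.5 for *Bax*, 11.6 for *Trp53*, 9.45 for *Mdm2*, 6.63 for *Bbc3* and 4.92 for *Trp53inp1* to 1.33 for *Zmat3*. *Cdkn2a* came last, with counts in 1 L1L2-FF library. The libraries of *Cdkn1a* and *Bax*, of *Bax* and *Trp53* and of *Bbc3* and *Trp53inp1* overlapped in this order, and the other neighbours did not. In the libraries labelled L1L2-AKO, *Phlda3* (45.1) and *Ccng1* (42.4) overlapped in CPM per kilobase, *Bax* (18.4) ranked above *Cdkn1a* (14.7), and *Cdkn1a* overlapped *Trp53* (14.0).

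Genes listed as other p53 targets were called at about the share of all genes. The lists, for arrest and repair and for death, were drawn up for this report. Whether p53 acts on each listed gene, *Cdkn1c* and *Ccng2* among them, was not tested. Of these 40 genes, 4 were higher and 3 lower (17.5%, beside 16.5% of all tested genes). Their median log2 fold change was -0.13 beside -0.02. The 4 higher calls became 1 without the library labelled L1L2-AKO replicate 1 or replicate 3, and 2 without any of L1L2-FF replicate 1, L1L2-FF replicate 2 and the library labelled L1L2-AKO replicate 2, with library size alone, with upper-quartile factors or with the replicate block, and the block gave 6 lower. *Cdkn1c*, *Btg2* and *Cdip1* were called in all 15 alternative settings. *Cdkn1c*, which encodes the CDK inhibitor p57, had the largest rise among them, from 94.6, 76.2 and 68.0 CPM in L1L2-FF to 378, 497 and 505 CPM in the libraries labelled L1L2-AKO. The level was 5.77-fold higher with no overlap (log2 fold change 2.53, SE 0.183, adjusted p = 0.000303, edgeR). *Btg2*, an antiproliferative gene that also answers to serum as an immediate-early gene, was counted at 463.9, 468.7 and 310.3 CPM in L1L2-FF and at 117, 189 and 188 CPM in the libraries labelled L1L2-AKO. It was thus lower in all 3 (log2 fold change -1.33, SE 0.237, adjusted p = 0.00818, edgeR).

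In the arrest and repair list (24 tested), *Sesn1*, a stress-responsive inhibitor of mTORC1 (log2 fold change 0.54, adjusted p = 0.0292, edgeR), and *Tigar*, a regulator of glycolysis (0.54, 0.0481), were also higher, and *Ccng2*, an unconventional cyclin (-0.60, 0.0230), was lower. These calls were weaker: *Sesn1* lost its call in 4 of the 6 fits without a library (all but those without L1L2-FF replicate 1 or the library labelled L1L2-AKO replicate 2, up to an adjusted p of 0.102), *Ccng2* in 3 (without L1L2-FF replicate 1 or the libraries labelled L1L2-AKO replicate 1 or 2, up to 0.0859), and *Tigar* in 5 (all but that without L1L2-FF replicate 3, up to 0.172) as well as with the replicate block (0.0806), library size alone (0.0719) and upper-quartile factors (0.0583, edgeR). *Gadd45a*, a growth arrest and DNA damage gene, had a log2 fold change of -0.15 (adjusted p = 0.758, edgeR). In the death list (16 tested), *Cdip1*, a proapoptotic target of p53, was lower, at 123, 115 and 128 CPM in L1L2-FF against 71.0, 68.1 and 72.8 CPM in the libraries labelled L1L2-AKO (log2 fold change -0.79, SE 0.102, adjusted p = 0.00219, edgeR). The groups lay well apart. *Pmaip1*, which encodes the BH3-only protein NOXA, was higher at a low level, 2.49, 4.39 and 2.29 CPM against 6.03, 5.68 and 6.88 CPM (log2 fold change 1.02, adjusted p = 0.0435, edgeR). Its call was lost with the replicate block (0.0514), library size alone (0.0628) and upper-quartile factors (0.0545) and in 5 of the 6 fits without a library, all but that without L1L2-FF replicate 2 (up to 0.146, edgeR). *Fas*, the death receptor, did not pass (-0.35, 0.162).

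Of 19 tested regulators of p53, 2 were higher and 1 lower (15.8%, beside 16.5% of all tested genes), and their median log2 fold change was -0.00. *Daxx*, a histone chaperone that binds MDM2, was higher in all 3 libraries labelled L1L2-AKO (66.1, 72.8 and 88.2 CPM against 37.5, 39.6 and 35.5 CPM, log2 fold change 1.01, adjusted p = 0.00229, edgeR). *Atm*, the kinase that signals DNA breaks, was higher (1.08, 0.0367), but lost its call with the replicate block (0.0662), with library size alone (0.0512) and without L1L2-FF replicate 1, L1L2-FF replicate 3 or the libraries labelled L1L2-AKO replicate 1 or 3 (up to 0.136, edgeR). *Trp63*, a p53 family member of epithelia, was lower at a low level (-1.74, 0.0112) and lost its call only without the library labelled L1L2-AKO replicate 2 (0.0532) among the 15 settings. *Mdm4*, the partner of MDM2, gave -0.11 (adjusted p = 0.773, edgeR). Of 22 tested BCL-2 family and caspase genes 1 was called (4.55%), *Bcl2l11*, which encodes BIM. It was lower (-0.83, 0.0274) and lost its call without L1L2-FF replicate 1 and without each library labelled L1L2-AKO (up to 0.109, edgeR). The antiapoptotic *Bcl2* (0.19, 0.611), *Bcl2l1* (-0.01, 0.974) and *Mcl1* (-0.27, 0.194) did not pass.

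Among other CDK inhibitor and RB pathway genes, *Cdkn1c* was higher and *Cdkn2c* lower. *Cdkn2c*, which encodes p18Ink4c, an inhibitor of CDK4 and CDK6, was counted at 231, 189 and 294 CPM in L1L2-FF and at 79.5, 55.1 and 61.2 CPM in the libraries labelled L1L2-AKO. It was 3.64-fold lower with no overlap (log2 fold change -1.87, SE 0.204, adjusted p = 0.00119, edgeR). *Cdkn2b*, the neighbour of *Cdkn2a* that encodes p15Ink4b, was counted at 6.06, 2.35 and 11.7 CPM against 31.5, 14.7 and 18.4 CPM. These groups did not overlap, yet the difference did not pass (log2 fold change 1.68, SE 0.524, adjusted p = 0.0634, edgeR). *E2f1*, a transcription factor released by RB, was higher (0.81, 0.0331), though not without L1L2-FF replicate 1 or any 1 library labelled L1L2-AKO (up to 0.0914, edgeR). *Cdkn1b*, which encodes p27 (-0.07, 0.815), and *Rb1* (0.21, 0.547) did not pass. With *Cdkn1c*, the list of 20 G1 and RB genes held 2 higher and 1 lower (15.0%, beside 16.5% of all tested genes). Of 16 genes that repress or regulate the *Cdkn2a* locus, *Jund* was the 1 called (6.25%, beside the same 16.5%). It was lower (-0.45, 0.0363), and the call was lost with the replicate block (0.0684) and without L1L2-FF replicate 1 or any 1 library labelled L1L2-AKO (up to 0.137, edgeR). The Polycomb genes *Bmi1* (-0.05, 0.786) and *Ezh2* (0.00, 0.991) did not pass.

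**Figure D4:**
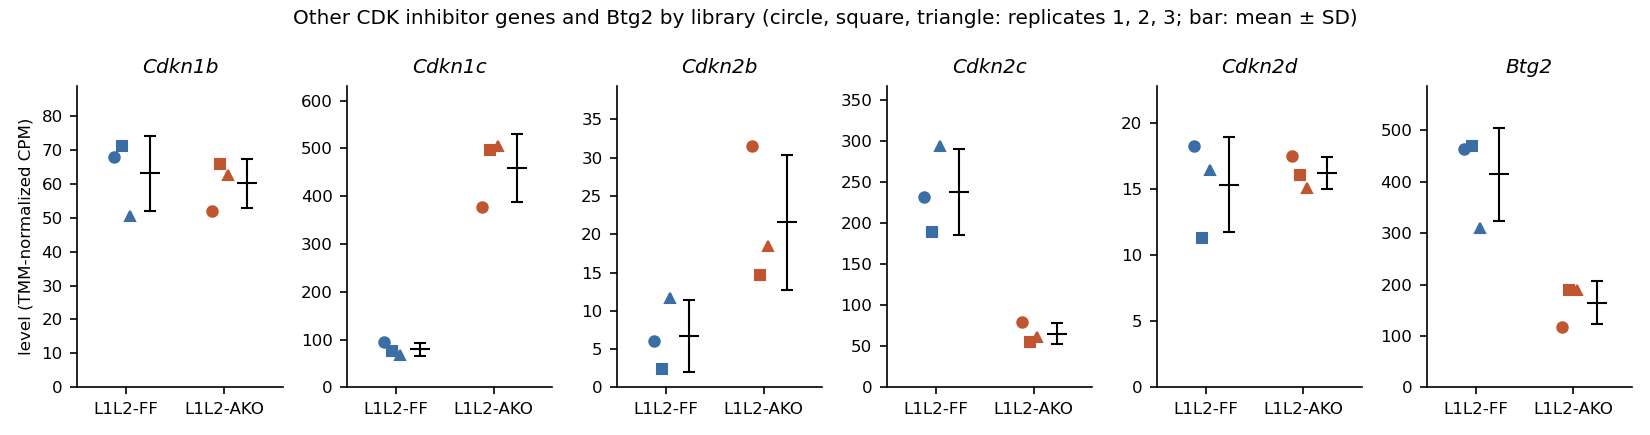
Level in TMM-normalized CPM (vertical axes, each from 0) of other CDK inhibitor genes and *Btg2* by genotype as labelled, with circles, squares and triangles for replicates 1, 2 and 3 and bars for the mean ± SD. *Cdkn1c* rose to 378 to 505 CPM, *Cdkn2c* fell to 55.1 to 79.5 CPM and *Btg2* to 117 to 189 CPM in the libraries labelled L1L2-AKO.

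Among senescence genes, secreted factors were often higher while nuclear and cell cycle marks were not called with all 6 libraries. Of 13 senescence marks, 15.4% were called, beside 16.5% of all tested genes, and none was lower. *Plaur*, the urokinase receptor (log2 fold change 0.79, adjusted p = 0.0202, edgeR), and *Cd9*, a tetraspanin (0.96, 0.0290), were higher. *Plaur* lost its call without L1L2-FF replicate 1 or the libraries labelled L1L2-AKO replicate 1 or 2 (up to 0.0883), and *Cd9* without L1L2-FF replicate 1, L1L2-FF replicate 3 or the libraries labelled L1L2-AKO replicate 2 or 3 (up to 0.106, edgeR). *Lmnb1*, the lamin that senescent cells lose, gave 0.17 (0.817), and *Glb1*, the gene of the lysosomal β-galactosidase used as a stain for senescence, gave 0.35 (0.105). None of 20 S phase and mitosis genes passed by edgeR, DESeq2 or limma-voom with all 6 libraries, and 2 were higher by edgeR without L1L2-FF replicate 3. An unadjusted p under 0.05 was found for 4 (beside 30.8% of all tested genes). The log2 fold change was positive for 19 of the 20, beside 7512 of all 15674 tested genes. Their median was 0.25, with *Mki67* at 0.17 (adjusted p = 0.827, edgeR).

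Of 26 tested genes for factors that senescent cells secrete, 12 were higher and 2 lower (53.8%, beside 16.5% of all tested genes), and the median of the list was 0.70 on the log2 scale. Leaving out 1 library gave 8 higher (without the library labelled L1L2-AKO replicate 2) to 12 higher (without L1L2-FF replicate 2). It gave 1 to 3 lower, with only 1 lower without L1L2-FF replicate 1 or the libraries labelled L1L2-AKO replicate 1 or 3. In all 6 such fits, 8 of the 26 genes were called. The 4 with the smallest p were the chemokine genes *Ccl7* (3.78, 0.000661), *Ccl8* (4.24, 0.00227) and *Ccl2* (2.15, 0.00229) and *Igfbp3*, an insulin-like growth factor binding protein (3.89, 0.00220), each given as log2 fold change and adjusted p by edgeR. *Il6* was counted at 5.94, 4.82 and 3.45 CPM in L1L2-FF and at 12.8, 44.9 and 46.8 CPM in the libraries labelled L1L2-AKO (log2 fold change 2.88, SE 0.475, adjusted p = 0.00593, edgeR). *Gdf15*, a p53 target and stress cytokine (0.19, 0.681), did not pass. Macrophages also make many of these factors, and 13 of 14 macrophage markers were higher (8 without L1L2-FF replicate 1). Their summed level was 281 to 545 CPM in L1L2-FF and 1010 to 1127 CPM in the libraries labelled L1L2-AKO. The part of macrophages in the secreted factors was not tested.

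**Figure D5:**
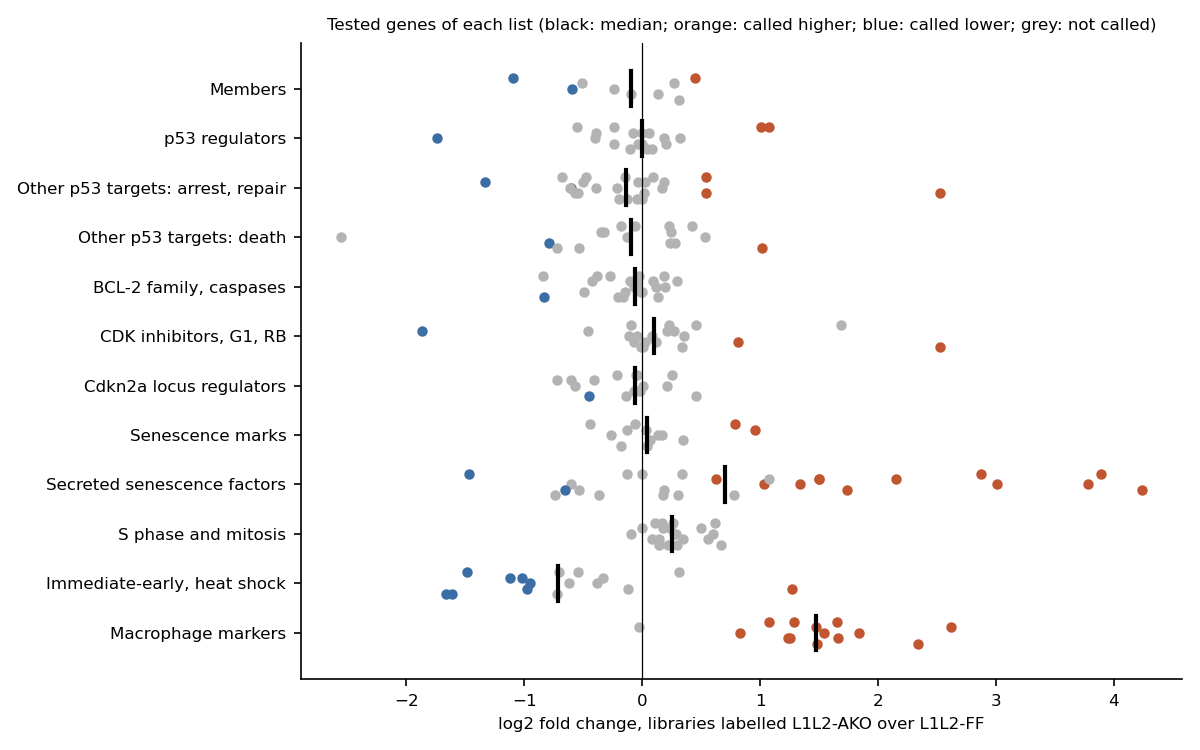
Log2 fold change (libraries labelled L1L2-AKO minus L1L2-FF) of every tested gene in 12 gene lists, with 1 point per gene and a line for the median of each list. The list medians lie near 0 for the p53 lists (-0.14 to -0.00), at 0.70 for the secreted factors, at 1.48 for the macrophage markers and at -0.72 for the immediate-early and heat shock genes.

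Genes that answer to tissue dissociation moved with the labels as well. Of 16 immediate-early and heat shock genes 7 were lower and 1 higher (beside 16.5% of all tested genes called), with 11 lower without L1L2-FF replicate 3 and 9 by DESeq2. Their median log2 fold change was -0.72, and their summed level was 4997 to 8411 CPM in L1L2-FF against 3296 to 3696 CPM in the libraries labelled L1L2-AKO. The smallest p values were those of the immediate-early genes *Ier2* (-1.67, 0.00119) and *Fosb* (-1.61, 0.00176), of the stress factor *Atf3* (-1.48, 0.00593) and of the heat shock gene *Hsph1*, which was higher (1.27, 0.00172, log2 fold change and adjusted p by edgeR). Of 10 adipocyte markers 3 were lower (median -0.48), and 5 were lower without L1L2-FF replicate 2, with library size alone or by DESeq2. With no overlap between the genotypes, 5 lay lower and 1 higher, beside 18.4% and 18.0% of all tested genes. The summed level of the adipocyte markers overlapped, at 22587 to 30708 CPM in L1L2-FF and 24947 to 33261 CPM in the libraries labelled L1L2-AKO. Of 7 Schwann cell markers 4 were lower and 1 higher (median -1.81), with 1 lower without L1L2-FF replicate 2, L1L2-FF replicate 3 or the libraries labelled L1L2-AKO replicate 1 or 3. Their summed level was 818 to 1669 CPM in L1L2-FF and 751 to 1381 CPM under the label L1L2-AKO. Of 7 mural cell markers 2 were lower and 1 higher (median -0.87, 1024 to 1376 CPM in sum against 772 to 1035 CPM), and of 8 progenitor markers 2 were lower (median -0.46, 536 to 774 CPM against 404 to 510 CPM). Leaving out 1 library gave 0 to 4 lower in the mural and in the progenitor list, with 0 without L1L2-FF replicate 1 or the library labelled L1L2-AKO replicate 2. Markers of lymphocytes, granulocytes with mast cells, endothelium, muscle and red cells gave 0 calls by edgeR with all 6 libraries. At an unadjusted p under 0.05 these 5 lists held 1, 2, 1, 2 and 0 genes, and DESeq2 called 2 muscle markers lower and limma-voom 1. Without L1L2-FF replicate 2, 4 of 8 lymphocyte markers were higher by edgeR, and the list median with all libraries was 0.95. The replicate block called 3 endothelial markers, 1 granulocyte or mast cell marker and 1 muscle marker lower. Without the library labelled L1L2-AKO replicate 3, 2 muscle markers were lower. The part of dissociation, of macrophages and of other cells in the differences of *Phlda3*, *Trp53inp1* and *Bax* was not tested.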

How the data were processed

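Counts per gene were read for adipocytes of inguinal scWAT in 6 libraries, 3 labelled L1L2-FF and 3 labelled L1L2-AKO, which the study describes as biological replicates. The authors sequenced paired ends on a BGISEQ-500 and ran FastQC, HISAT2 2.1.0 on mm10, SAMtools and StringTie 1.3.5. What they deposited is a table of raw read counts for each gene symbol, not normalized. The counting program, annotation and strand setting are not given in the sources used here. Totals were 30548473 to 32107917 counts. Reads of the same molecule were not marked, so the floor of 3 counts covers counting error only.

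In R 4.3.3, edgeR 4.0.16 with filterByExpr (minimum count 10, minimum total 15) kept 15674 genes and left out 21710. TMM factors, glmQLFit and glmQLFTest with Benjamini-Hochberg adjustment over all tested genes gave the two-sided p-values. SEs are the absolute log2 fold change over the square root of F. The 95% intervals use the fit's total degrees of freedom, residual plus prior (8.07 for the 9 tested genes of the 10). Positions and exon lengths come from GENCODE M21 (37336 symbols matched, 48 not) and promoters from RefSeq GRCm38.p6. Plots and tables used Python 3.11.15. Counts were also simulated from the mean levels and totals of these libraries, with the same dispersion for every gene. Changes were placed only in genes above a minimum mean count. In that setting (15738 genes tested), the edgeR test recovered 100 of 100 changes of 4-fold and 66 of 100 of 2-fold, with 6 false calls among 172. These rates need not hold for the measured counts.

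The genes and lists were chosen with earlier results of these data known, so no list was tested as a set. Named are all 10 genes, *Lats1* and *Lats2*, the called members of each list where 6 or fewer (otherwise the 4 with the smallest p), and well-known members whatever their result, of which 1 is not reported here. Alternative settings comprised DESeq2 1.42.0 (Wald test, and its size factors in edgeR), limma-voom (limma 3.58.1), library size alone, upper-quartile factors, the 20 most abundant genes left out of library sizes, no filter, at least 10 counts in every library, replicate number as a block, and each library left out. Libraries of 1 genotype differed beyond the noise of sampling, and none was treated as a copy.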

Additional observations from a re-analysis of the deposited data

How the results depend on the processing

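With 3 pools per genotype the intervals of *Cdkn1a*, *Trp53*, *Ccng1*, *Bbc3* and *Zmat3* include 0 and leave moderate differences undecided, and counts of 0 to 5 limit *Cdkn2a*. *Phlda3* passed in all 15 alternatives, *Trp53inp1* lost the call in 5 and *Bax* in 9. The number of the 10 genes called higher was 1 and became 0 with library size alone, upper-quartile factors, no filter on low counts or the replicate block, where *Bax* had an adjusted p of 0.0574, 0.0523, 0.0947 and 0.0634 (edgeR). Leaving out 1 library gave 0 to 1 higher and 1 to 2 lower (2 with all libraries). Over all tested genes, 1455 were higher (777 to 1552 without 1 library) and 1125 lower (467 to 1293), and over the 10 pathway lists 22 were higher (13 to 20) and 16 lower (11 to 24). *Cdkn1a* turned sign without L1L2-FF replicate 1 (0.014) and without the library labelled L1L2-AKO replicate 1 (0.031), within a range of -0.25 to 0.031 over the 6 such fits. *Lats2* kept its direction and lost its call in 4 alternatives. Same-numbered libraries deviated together at r = 0.188, 0.255 and -0.05 across genes, so replicate numbers were not taken as pairs, and the block changed no other call among the 10 genes. No setting moved the median over all tested genes by more than 0.1 on the log2 scale.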

Other observations

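Over the 6 libraries, the tested genes whose log2 CPM followed *Trp53* most closely were *Pold3* (Pearson r = 0.992), *Tnfaip2* (0.982) and *Gnai2* (0.982), and those closest to *Cdkn1a* were *Gm13577* (0.991), *Coprs* (0.986) and *Ube2g1* (0.984). Picked from 15674 tested genes over 6 libraries, such values describe these libraries only, which share their genotype labels and scaling.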
